A study of Mus musculus with 36 samples.

Results

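Prmt1, Carm1, Prmt5 and Prmt7, which methylate arginines in proteins, and Dnmt1, Dnmt3a and Dnmt3b, which methylate DNA, were followed across the livers of 9 groups of mice. Every probe set annotated to one of these 7 gene symbols was taken, which gave 16 of the 45037 probe sets that are not array controls (7 of 18193 gene symbols). Prmt1, Carm1 and Prmt5 had 1 probe set each, Prmt7 and Dnmt1 had 3, Dnmt3a had 5 and Dnmt3b had 2. The set was chosen by the Prmt1 signal of Apob mutant against control liver, which earlier work on these data had shown to be higher, so values of that comparison are given as a description and are not tested.

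The study set 5 mouse models of neural tube defects beside controls, with 4 female mice per group, aged 6 to 8 weeks, fasted for 4 to 5 h and measured on 1 whole-liver array each (36 arrays). The mutant groups were Pax3 Sp2H heterozygotes (Pax3), Lrp6 Cd heterozygotes (Cd-Het), Apob tm1Unc heterozygotes (Apob), Vangl2 Lp heterozygotes (Lp-Het) and curly tail mice (Ct). The Ct mice came from a closed, randomly bred colony whose members are all taken to be ct/ct homozygotes. C57BL/6J wild types (B6) were the control of both Pax3 and Apob, and CBA/CaJ wild types (CBA) were the control of Ct. Wild types of the Lrp6 Cd and Vangl2 Lp stocks (Cd-WT and Lp-WT) were the controls of the remaining pair. The labels call Pax3 and Cd-Het responsive to dietary folic acid, and Apob, Ct and Lp-Het resistant. The labels name no folic acid treatment of these mice.

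Protein arginine methyltransferases and DNA methyltransferases draw their methyl groups from S-adenosylmethionine, which the liver makes from methionine and which the folate cycle helps to replenish. Prmt1 makes most of the asymmetric dimethylarginine of the cell, on histones and on many RNA-binding proteins. Carm1 makes the same kind of mark as a transcriptional coactivator, Prmt5 makes symmetric dimethylarginine, and Prmt7 makes monomethylarginine. Dnmt1 copies DNA methylation to the new strand after replication, while Dnmt3a and Dnmt3b place it on unmethylated sites.

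The 250 bases before the start of Prmt1 are shown because Prmt1 was the member whose level differed between control stocks. They are taken from the RefSeq promoter table (build GRCm38.p6, chr7:44986421-44986670, minus strand) and are printed with each CG in capitals.
Prmt1: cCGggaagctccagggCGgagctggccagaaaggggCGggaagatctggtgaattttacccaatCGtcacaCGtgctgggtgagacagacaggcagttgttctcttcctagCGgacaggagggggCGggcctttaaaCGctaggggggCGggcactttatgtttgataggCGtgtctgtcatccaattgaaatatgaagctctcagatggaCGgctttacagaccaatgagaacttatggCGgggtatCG
This stretch held 13 CG pairs, against a median of 6 in 32851 promoters of the same length, of which 37.8% had 10 or more. It held 4 matches to GGGCGG (the GC box, either strand), a motif present in 32.7% of all such stretches, and 3 matches to CCAAT (either strand), present in 33.9%. The RefSeq table matched 6 of the 7 genes, with 10 entries, of which 8 had 10 or more CG pairs, 7 had GGGCGG and 4 had CCAAT. No entry was matched for Carm1. The matches describe these letters, and no binding or methylation was measured here.

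Values are MAS5 signals on a linear scale, scaled by the authors to a common mean on every array. Among hepatocyte markers, 9 were on the array and all 9 passed the filter on low signals, with a summed signal from 292104 to 643655, so the tissue matched its label. The Gapdh control ratio (3′ probe set over 5′), which rises as RNA breaks down, was 0.729 to 0.956 on 34 arrays. It was 1.72 on Ct replicate 3 and 52.5 on CBA replicate 4. Calls of members and list genes that rest on these arrays are given with and without them. The mutated gene itself was tested in 3 lines. Apob was lower in Apob than in B6 liver (−1.82 ± 0.42 SE on the log2 scale, limma adjusted p = 0.0287), while Lrp6 in Cd-Het (0.30 ± 0.34) and Vangl2 in Lp-Het (0.35 ± 0.29) did not pass the test, and Pax3 and the ct gene Grhl3 were below the filter.

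Prmt1 signal was high in Cd-WT and Apob liver, spread widely in Cd-Het liver, and lower in the other 6 groups. The 4 Apob mice read 688.9, 551.6, 664.7 and 561.3. The Cd-WT mice read 584.6, 552.8, 497.5 and 646.1. Every mouse of these groups lay above every mouse of Pax3, B6, Ct, CBA, Lp-Het and Lp-WT. In Apob against B6, the pair that chose Prmt1, 10.02% of all probe sets did not overlap. That share was not counted for the other pairs named here, which include Cd-WT against CBA and Lp-WT.

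Among the lower groups, Pax3 mice read 200.4, 216, 323.8 and 212.4, and the 323.8 of replicate 3 was the highest signal outside Apob, Cd-WT and Cd-Het. The B6 mice read 166.2, 180.5, 227.3 and 219.2, and Lp-Het mice read 176.8, 226.1, 141 and 231.3. The Lp-WT values were 195.1, 147.4, 129.7 and 216. These 4 groups overlapped one another.

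Ct mice read 150.8, 207.4, 102 and 170.1, where 102 is the mouse with the raised Gapdh ratio. The CBA mice read 194.5, 203.4, 256.9 and 54.29, and the last is the array with the very high Gapdh ratio. In order of mean signal (mean ± SD, n = 4), Apob (617 ± 70.3) was followed by Cd-WT (570.2 ± 62.1), Cd-Het (363 ± 142), Pax3 (238 ± 57.5), B6 (198 ± 29.6), Lp-Het (194 ± 42.9), CBA (177 ± 86.5), Lp-WT (172 ± 40.3) and Ct (158 ± 43.9). No group was separated from the next group in this order, since all 8 neighbouring pairs overlapped.

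**Figure D1:**
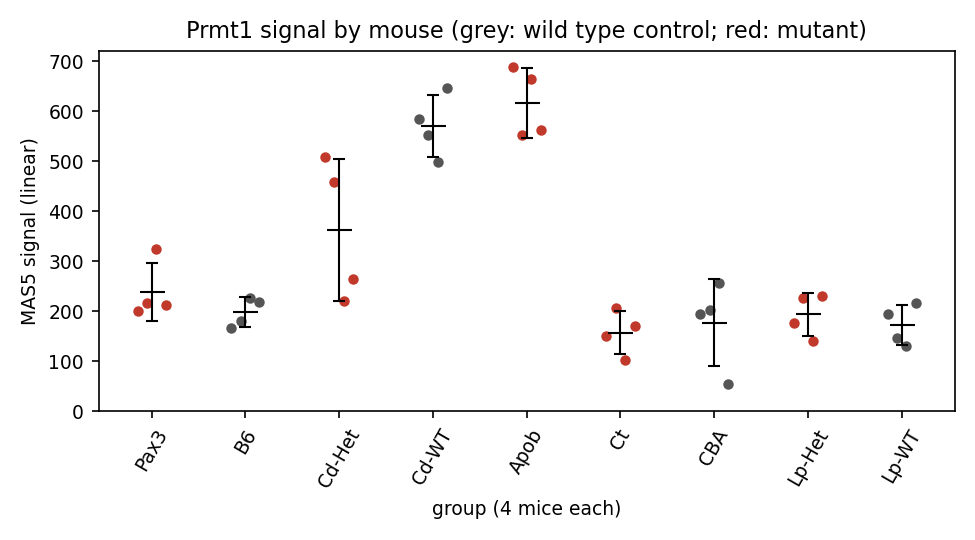
MAS5 signal of Prmt1 (linear scale) for each of 36 mice by group; points are mice, bars show the mean ± SD of 4, grey marks wild type controls and red marks mutants. All Cd-WT and Apob mice sit above 497, Cd-Het mice range from 221 to 508, and every mouse of the other 6 groups sits at or below 324.

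The 4 control groups differ in strain or stock, and they tell how far Prmt1 varied without any of the mutations. Prmt1 differed among them (moderated F test in limma, F = 16.4, adjusted p = 7.4e-05 over 25941 probe sets). With all arrays it was the only 1 of 12 tested member probe sets called at an adjusted p below 0.05. Of all probe sets, 10% were called there. Without the 2 arrays of raised Gapdh ratio, 2 member probe sets were called, of Prmt1 and Dnmt3b, where 13.2% of all probe sets were. B6 also served in the comparison that chose Prmt1, so the test over 4 controls is not independent of the choice. It was repeated over Cd-WT, CBA and Lp-WT alone, a choice made after the values were seen. Prmt1 differed there as well (F = 23.6, adjusted p = 4.47e-05; 6.55% of probe sets called), and did so without the 2 arrays of raised Gapdh ratio (F = 33.2, adjusted p = 2.21e-06; 7.98% called).

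Prmt1 was 3.27-fold higher in Cd-WT than in CBA liver (log2 difference 1.71 ± 0.28 SE, 95% interval 1.14 to 2.28, limma adjusted p = 0.00011). Without the CBA and Ct arrays of raised Gapdh ratio the difference was 1.30 ± 0.23 (adjusted p = 0.000261; 4.77% of probe sets called). Against Lp-WT it was 3.08-fold higher (1.62 ± 0.28, interval 1.05 to 2.19, limma adjusted p = 0.000269). Of all probe sets, 4.88% and 2.55% were called in these comparisons. The difference from B6, whose arrays helped to choose Prmt1, was 2.69-fold (1.43 ± 0.28) and is given as a description. These are differences in RNA signal from whole liver, in which fewer cells of a type and less RNA per cell cannot be told apart.

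In the Apob against B6 comparison that chose it, Prmt1 was 2.90-fold higher (1.53 ± 0.28 SE on the log2 scale), a difference given as a description. Over all probe sets, 0.806% were called in that comparison. The other 11 member probe sets lay between −0.83 and 0.13 there, with a median of −0.15, and 9 of the 11 were negative. Pax3 shares its B6 controls with Apob, and its Prmt1 difference was 0.23 ± 0.28 (interval −0.34 to 0.80, limma adjusted p = 0.9993).

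A technical measure moved with the same groups. The 5′ probe sets of the 4 bacterial transcripts on the array (dap, lys, phe and thr), read as their geometric mean, gave 3099 to 18392 on the Cd-Het, Cd-WT and Apob arrays. They gave 13194 to 45763 on the arrays of the other groups apart from CBA replicate 4, which read 619. These ranges overlap. In replicate order, the Apob arrays had control signals of 18392, 5413, 10837 and 3099, with Prmt1 signals of 688.9, 551.6, 664.7 and 561.3. The Cd-WT arrays had control signals of 8247, 10987, 12221 and 12430, with Prmt1 signals of 584.6, 552.8, 497.5 and 646.1. For Cd-Het the control signals were 10727, 6444, 8958 and 10935, with Prmt1 signals of 508.4, 459, 221.1 and 264.4. The 3′ over 5′ ratio of the pyruvate carboxylase control was 2.99 to 5.21 in Apob, 4.25 to 8.19 in Cd-WT and 6.68 to 16.1 in Cd-Het. It was 5.99 to 26.6 in B6, 8.36 to 15.6 in CBA and 8.46 to 15.7 in Lp-WT. In Pax3 it was 6.65 to 11.1, in Lp-Het 7.23 to 9.185 and in Ct 9.19 to 26.4. The ranges of B6, Pax3 and Lp-Het overlapped that of Cd-WT. The part of these measures in the Prmt1 differences was not tested, and both were picked after the values were seen.

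**Figure D2:**
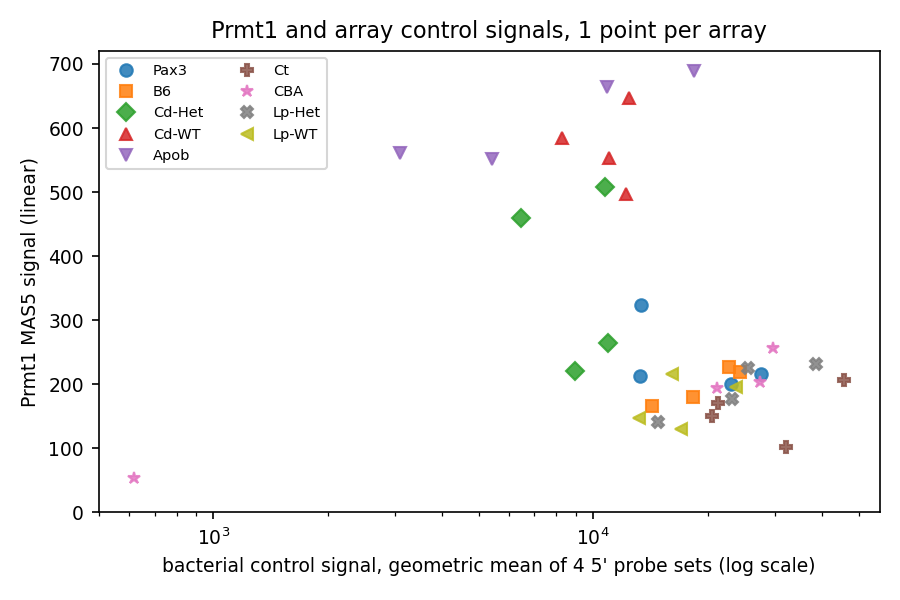
Prmt1 MAS5 signal (linear vertical axis) against the geometric mean signal of 4 bacterial control 5′ probe sets (logarithmic horizontal axis), 1 point for each of 36 arrays, with a symbol for each group. The Apob, Cd-WT and Cd-Het arrays lie to the left at 3099 to 18392, and CBA replicate 4 lies alone at 619.

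Cd-Het livers held both high and low Prmt1. Replicates 1 and 2 read 508.4 and 459, and replicates 3 and 4 read 221.1 and 264.4, so that 1 Cd-Het mouse exceeded the lowest Cd-WT mouse. The mean difference from Cd-WT was −0.69 ± 0.28 (interval −1.26 to −0.12), which did not pass the test after adjustment (unadjusted p = 0.019, limma adjusted p = 0.9999; 0.00385% of all probe sets were called). The within-group SD of Cd-Het, 142, was the largest of the 9 groups on the linear scale.

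Prmt1 gave no call in the other lines. The Ct against CBA difference was −0.04 ± 0.28 (interval −0.61 to 0.54, limma adjusted p = 0.96), and −0.28 ± 0.24 without the 2 arrays of raised Gapdh ratio. The Lp-Het against Lp-WT difference was 0.15 ± 0.28 (interval −0.42 to 0.72, limma adjusted p = 0.97; 0.0231% of all probe sets were called). The effects of Pax3, Cd-Het, Ct and Lp-Het on Prmt1 were not shown to differ (F = 2.21, limma adjusted p = 0.53; 1.09% of all probe sets were called).

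The genes whose log2 signals followed Prmt1 most closely over the 34 arrays were Trappc3, a subunit of the TRAPP vesicle-tethering complex (Pearson r = 0.93), Srp72, a protein of the signal recognition particle (0.88), Sh3d19 (0.83), Cd59a, an inhibitor of complement lysis (0.80), and Akt1s1, an mTORC1 subunit (0.80). They were ranked on these same arrays, so the r values are a description; over 36 arrays they were 0.93, 0.88, 0.83, 0.85 and 0.85. The points share the groups, and r of the deviations from group means was 0.62 for Trappc3, 0.34 for Srp72, 0.21 for Sh3d19, 0.21 for Cd59a and 0.03 for Akt1s1. Srp72 and Cd59a each had another probe set, with r of −0.10 and 0.10 to Prmt1.

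Trappc3 showed the same groups high. Apob mice read 2845, 2597, 2607 and 2591, Cd-WT mice read 2560, 2932, 2636 and 2595, and B6 mice read 1440, 1391, 1577 and 1313. Among the Cd-Het mice, Trappc3 was 2567 and 2360 in the 2 with high Prmt1 and 1705 and 2137 in the other two.

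**Figure D3:**
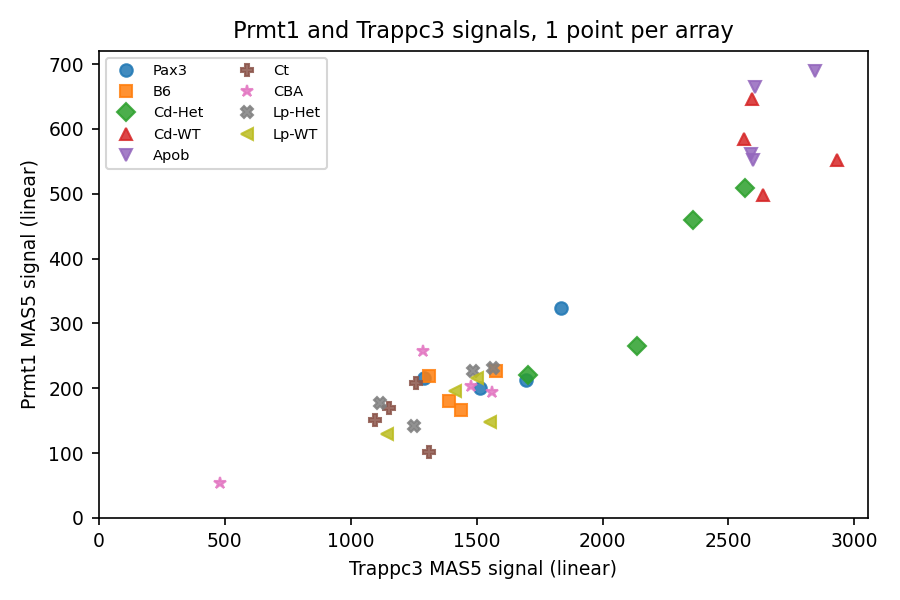
Prmt1 against Trappc3 MAS5 signal (both linear), 1 point for each of 36 arrays with a symbol for each group. Apob and Cd-WT arrays lie together at the upper right, with Trappc3 at or above 2560, and the 4 Cd-Het arrays run from 1705 to 2567.

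Akt1s1 lies 8 genes from Prmt1 in the RefSeq gene order (GRCm38.p6). Among the 10 genes on either side of Prmt1, 17 were tested with 25 probe sets, a set looked at after the values were seen. Of these 25, 2 had r above 0.5 to Prmt1, and both belonged to Akt1s1 (another of its probe sets had r = 0.18); 2.56% of all probe sets had r above 0.5. Akt1s1 read 1377, 1281, 1383 and 1090 in Cd-WT against 498.2, 502.2, 410 and 575.7 in Lp-WT. Rcn3, also 8 genes away on the other side, was higher in Cd-WT than Lp-WT (1.13 ± 0.29, limma adjusted p = 0.0245), while its Apob against B6 difference was 0.04. The nearest neighbour, Bcl2l12, differed by −0.01 ± 0.31 between Cd-WT and Lp-WT (limma adjusted p = 0.99).

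Deviations of Prmt1 from its group means were most like those of Ddit3 (r = 0.72), 2810408I11Rik (0.72), Slc7a7 (0.70), Ufm1 (0.69) and Vsir (0.66) over 34 arrays, again as a ranking. Ddit3 encodes CHOP, a transcription factor of the endoplasmic reticulum stress response, and Ufm1 is a ubiquitin-like modifier. Ufm1 had 3 other probe sets, with r to Prmt1 as low as −0.01. The other probe set of Vsir had r of −0.25, and that of Slc7a7 had 0.41.

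The other arginine methyltransferases spread less between groups than Prmt1, as their SDs show. Carm1 ranged from 473.2 to 1180 over the 36 mice, with group means from 609 in Apob to 838 in Lp-WT. The Lp-WT mean included 1 mouse at 1180, the others reading 636.9, 700.8 and 834.7. Prmt5 ranged from 201.3, on CBA replicate 4, to 897.4, and its group means from 529.6 in CBA to 786 in Lp-Het. The main Prmt7 probe set ranged from 400.8 to 952.2, and its group means from 529.7 in Apob to 689 in Ct. Between-group SDs of the log2 group means were 0.14 for Carm1, 0.24 for Prmt5 and 0.10 for Prmt7, against 0.72 for Prmt1. These SDs include Apob and B6, the pair that chose Prmt1. A large SD of Prmt1 follows in part from that choice, so the contrast is a description.

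None of these 3 genes was called in Pax3, Cd-Het, Ct or Lp-Het against its control. Of all probe sets, 0%, 0.00385%, 4.85% and 0.0231% were called there. Carm1 differed from its control by 0.17 ± 0.18 in Pax3, 0.09 ± 0.18 in Cd-Het, −0.10 ± 0.18 in Ct and −0.27 ± 0.18 in Lp-Het, and the widest of these intervals on the low side reached −0.64. Prmt5 differed by −0.02 ± 0.23 in Pax3, 0.10 ± 0.23 in Lp-Het and −0.20 ± 0.23 in Cd-Het (interval −0.66 to 0.26). Its difference in Ct was 0.18 ± 0.23 with all arrays and −0.16 ± 0.17 without the 2 arrays of raised Gapdh ratio, so its sign turned. For Prmt7 the difference was largest in Ct (0.24 ± 0.20, interval −0.17 to 0.65, limma adjusted p = 0.52). The Carm1 and Prmt5 probe sets are of the kind that can also bind related transcripts. Both further Prmt7 probe sets lay below the filter and had r of 0.08 and 0.03 to the main one over 36 arrays.

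**Figure D4:**
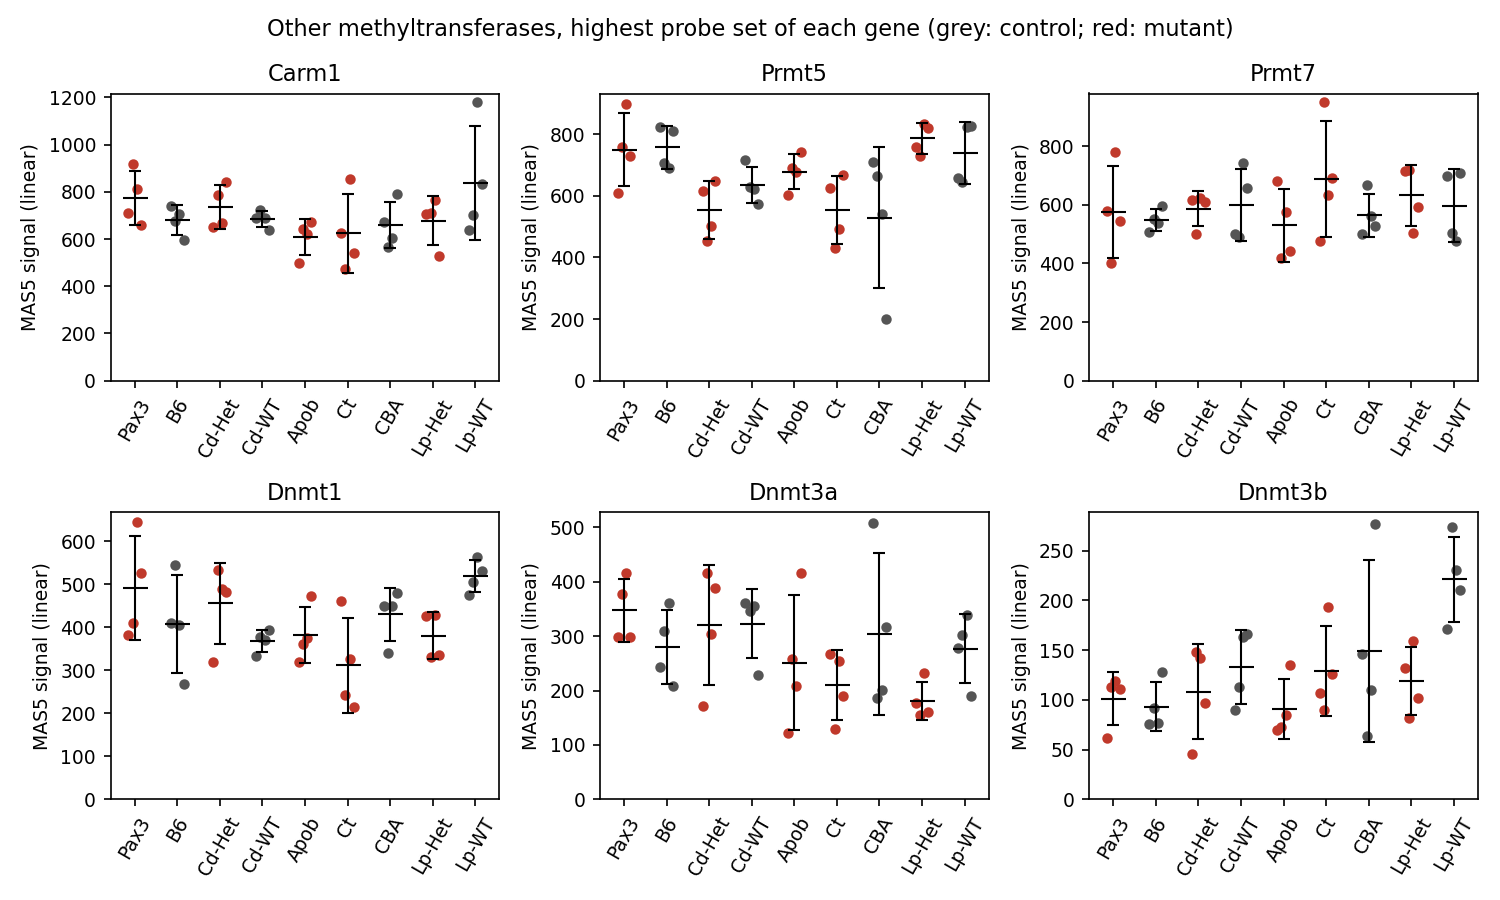
MAS5 signal (linear) of the highest probe set of Carm1, Prmt5, Prmt7, Dnmt1, Dnmt3a and Dnmt3b for each mouse by group; points are mice, bars show mean ± SD of 4, grey marks controls and red marks mutants. Dnmt1 in Lp-Het lies below Lp-WT in all mice, and Dnmt3b is highest in Lp-WT.

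Dnmt1, the maintenance methyltransferase, was not called in Pax3, Cd-Het, Ct or Lp-Het against its control either. By its main probe set the mean was below the control in Ct and Lp-Het and above it in Pax3 and Cd-Het. The second tested probe set, of the kind prone to cross-hybridisation, had the opposite sign in Lp-Het (0.14 ± 0.33) and Cd-Het (−0.10 ± 0.33), with −0.18 ± 0.33 in Ct and 0.18 ± 0.33 in Pax3. The main probe set read 426.5, 330.7, 429.3 and 335.2 in Lp-Het against 475.9, 504.9, 562.1 and 531.6 in Lp-WT. These groups did not overlap, as in 5.24% of all probe sets, and the difference was −0.43 ± 0.21 (limma adjusted p = 0.76). Ct mice read 459.9, 243.4, 327.1 and 213.8 and CBA mice 449.3, 340.5, 449.5 and 480.3, overlapping groups with a difference of −0.48 ± 0.21 (limma adjusted p = 0.17). The Pax3 and Cd-Het differences were 0.27 ± 0.21 each.

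The mean effect of Pax3 and Cd-Het minus that of Ct and Lp-Het was 0.73 ± 0.21 for Dnmt1 (interval 0.30 to 1.15), with an unadjusted p of 0.0014 and a limma adjusted p of 0.11. No member was called in this contrast of responsive and resistant lines, in which 0.567% of all probe sets were. The second tested Dnmt1 probe set gave 0.06 ± 0.33 and had r = 0.27 to the main one, and the last was below the filter. Leaving out Ct replicate 1 brought Dnmt1 to a limma adjusted p of 0.0295, the lowest over all settings.

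Dnmt1 is a gene of dividing cells, and the summed signal of 13 cycling-cell markers (14 were on the array, and Tyms was below the filter) was read beside it. Pax3 replicate 3 had the highest sum, 9655 against 3385 to 3739 in the other Pax3 mice, and also the highest Dnmt1 signal, 645.6. Ct mice did not follow this: replicate 3 had a sum of 4906 and a Dnmt1 signal of 327.1, and replicate 1 had 2408 and 459.9. The sum was 2879 to 4855 in Lp-Het and 2500 to 3625 in Lp-WT. None of the 13 markers was called in any line, and their part in the Dnmt1 values was not tested.

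Dnmt3a, a de novo methyltransferase, gave the only member call against a control. By the probe set 1460324_at, Ct mice read 189.5, 67.29, 102.3 and 106 and CBA mice read 315, 189.1, 232.9 and 221.4, overlapping by 1 mouse. The difference was −0.96 ± 0.28 (interval −1.53 to −0.40, limma adjusted p = 0.0382), 1 of 12 tested member probe sets called where 4.85% of all probe sets were. Without the 2 arrays of raised Gapdh ratio it was −0.96 ± 0.32 with a limma adjusted p of 0.15, and 1.72% of all probe sets were called. Leaving out CBA replicate 1 or 4, or Ct replicate 2, 3 or 4, also ended the call.

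The other tested Dnmt3a probe sets also had lower means in Ct, with differences of −0.43 ± 0.30, −0.47 ± 0.33 and −1.41 ± 0.52, and none was called. They did not always move together. The r of 1423063_at over 36 arrays was 0.66 with 1460324_at, 0.56 with 1423065_at and 0.03 with 1423064_at, and the fifth probe set was below the filter. Kupffer cell and macrophage markers differed in the same comparison: 6 of 12 were called higher in Ct, where 5.75% of all genes were called in either direction. Their summed signal was 18291, 25701, 111495 and 25973 in Ct mice against 16780 to 23946 in CBA, so the groups overlapped. The highest sum was on Ct replicate 3, an array of raised Gapdh ratio, and the marker calls were not counted without it. The part of these cells in the Dnmt3a value was not tested.

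In the other lines, 1460324_at differed by 0.50 ± 0.28 in Pax3, −0.18 ± 0.28 in Cd-Het and −0.32 ± 0.28 in Lp-Het, and no Dnmt3a probe set was called. The highest Dnmt3a probe set, 1423063_at, read 177.2, 154.9, 232 and 159.7 in Lp-Het and 278.2, 302.4, 338.7 and 189.6 in Lp-WT. These groups overlapped by 1 mouse (−0.55 ± 0.30, limma adjusted p = 0.79).

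Dnmt3b, the second de novo enzyme, was dim, with 45.03 to 277.4 over the 36 mice in its highest probe set. That probe set, 1449052_a_at, read 170.9, 273.9, 230.7 and 210.1 in Lp-WT and 132.4, 81.31, 159.6 and 102.1 in Lp-Het. The groups did not overlap, and the difference was −0.80 ± 0.31 (interval −1.43 to −0.17, unadjusted p = 0.0146, limma adjusted p = 0.66). Lp-Het against Lp-WT gave 2 of 12 tested member probe sets without overlap, of Dnmt1 and Dnmt3b, where 5.24% of all probe sets had none.

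Among the 4 controls this Dnmt3b probe set did not pass the test (F = 4.1, limma adjusted p = 0.094), and it passed without the arrays of raised Gapdh ratio (F = 5.94, limma adjusted p = 0.0254; 13.2% of all probe sets called). CBA replicate 4 read 277.4, against 146.2, 63.58 and 109.9 in the other CBA mice. The second Dnmt3b probe set had its highest mean in Lp-Het (140.7) and its lowest in CBA (77.1), and its r to the first was 0.03.

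**Figure D5:**
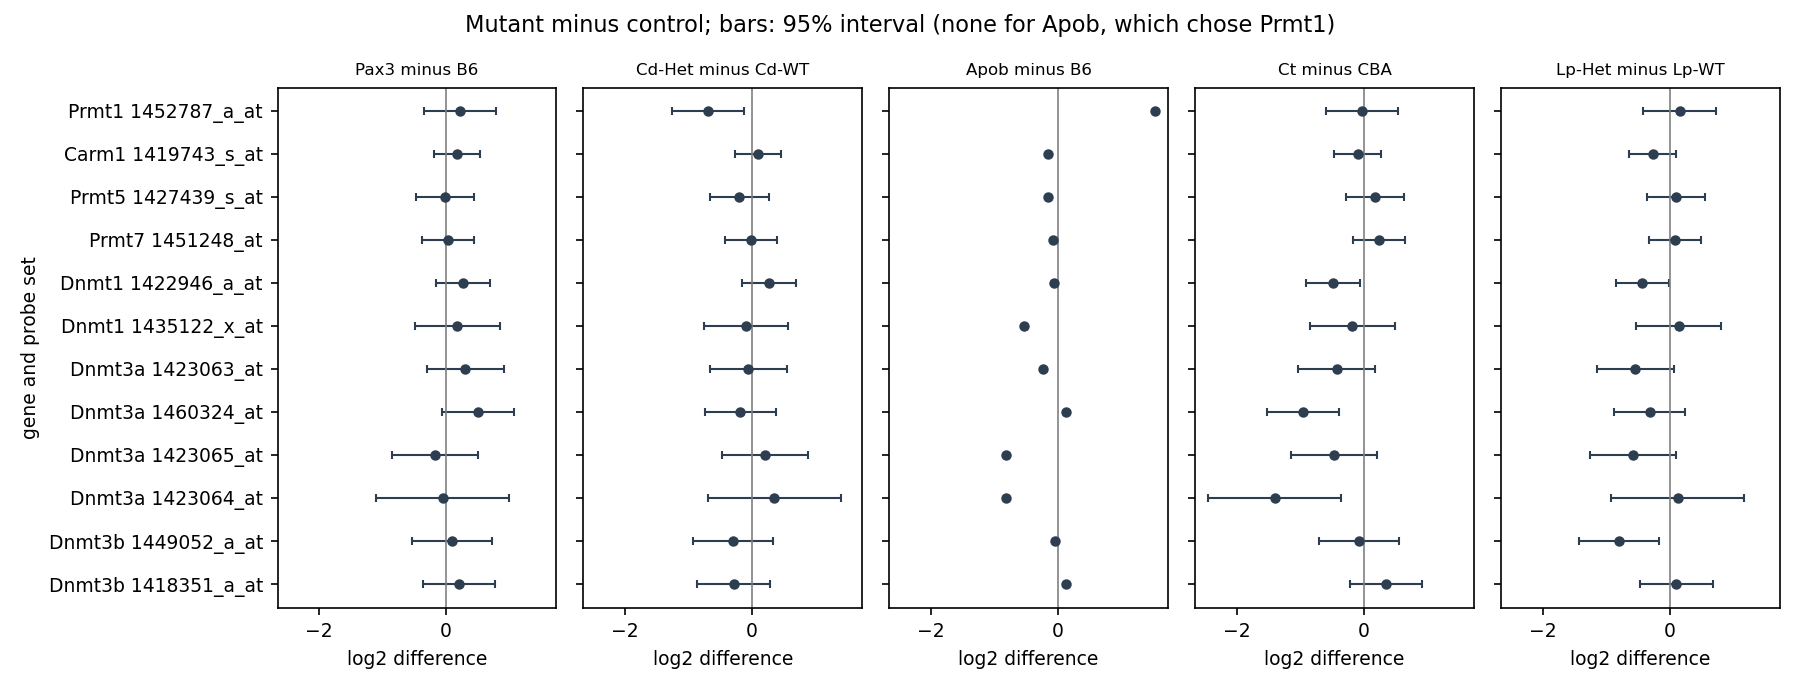
Log2 difference of mutant minus control for the 12 tested member probe sets in 5 comparisons; bars are 95% intervals from limma, and the Apob panel, which chose Prmt1, carries points only. Prmt1 stands at 1.53 in Apob, and the call in Ct is the Dnmt3a probe set 1460324_at at −0.96.

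Genes that work with these enzymes were read from 6 lists with 137 genes, of which 121 were tested with 1 probe set each. No list gene was called in Pax3, Cd-Het or Lp-Het against its control (0%, 0% and 0.0312% of all genes were called), nor in Apob, where 0.631% of all genes were. At an unadjusted p below 0.05 there were 6, 2, 6 and 10 of the 121, beside 5.24%, 2.07%, 6.99% and 10.8% of all genes. Without the arrays of raised Gapdh ratio 3 genes were called in Apob, where 2.7% of all genes then were. In Ct against CBA, 7 of the 121 were called, 4 higher and 3 lower, where 5.75% of all genes were; 2 of these, Nnmt and Nsun3, were called without those arrays, where 1.75% of all genes were.

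Of the 14 tested genes of S-adenosylmethionine supply and removal, 3 were called in Ct. Nnmt, which methylates nicotinamide, was higher in Ct than CBA (3.20 ± 0.42, limma adjusted p = 4.19e-06). Gnmt, which uses S-adenosylmethionine to methylate glycine, was higher (0.59 ± 0.16, limma adjusted p = 0.0287), and Mat2b, a regulatory subunit of the enzyme that makes it, was lower (−0.72 ± 0.20, limma adjusted p = 0.0328). Only Nnmt of these passed without the 2 arrays (2.63, limma adjusted p = 0.000283). The list's median difference was 0.17, beside 0.01 over all genes.

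Among 24 RNA methyltransferases, Nsun3, which methylates a mitochondrial tRNA, was higher in Ct (598.6 ± 123 against 194 ± 28.2, SD, n = 4; 1.50 ± 0.21 on the log2 scale, limma adjusted p = 9.4e-06), and it passed without the 2 arrays too. Its paralog Nsun4, which methylates mitochondrial rRNA, was lower (−0.56 ± 0.16, limma adjusted p = 0.0302), and did not pass without them (adjusted p = 0.21 in limma). The list's median was 0.26.

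Substrates of Prmt1 and Carm1 had 1 call of 20 in Ct, Khdrbs1, an RNA-binding protein methylated by Prmt1 (0.87 ± 0.19, limma adjusted p = 0.00475). It did not pass without the 2 arrays (limma adjusted p = 0.095), its probe set is prone to cross-hybridisation, and its other probe sets gave −0.60 to 0.81. The list's median was −0.34. Of 36 lysine methyltransferase genes, Suz12, a subunit of Polycomb complex PRC2, was lower (−0.50 ± 0.15, limma adjusted p = 0.0474), and did not pass without the 2 arrays (limma adjusted p = 0.25). None of the 13 other arginine methyltransferase and cofactor genes and none of the 14 DNA methylation readers, cofactors and erasers was called in Ct; 2 and 3 had an unadjusted p below 0.05, as did 24.3% of all genes.

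Among the 4 control groups, 17 of the 121 list genes were called (14.05%), where 10.4% of all genes were. The substrates of Prmt1 and Carm1 gave 6 of 20, including Khdrbs1, Nup98, Pabpn1 and Smarcc1, of which Khdrbs1 had the smallest adjusted p (6.08e-06 in limma). Lysine methyltransferases gave 3 of 36, Vcpkmt (limma adjusted p = 7.07e-09), Smyd2 (limma adjusted p = 1.19e-06) and Suz12 (limma adjusted p = 0.00485). RNA methyltransferases gave 3 of 24 (Nsun3, Mettl1 and Mrm1), the S-adenosylmethionine list 2 of 14 (Nnmt and Cbs), the DNA methylation list 2 of 14 (Mbd4, a mismatch glycosylase, and Pcna, the replication clamp), and the arginine methyltransferase list 1 of 13, the Prmt5 cofactor Clns1a. Without the 2 arrays of raised Gapdh ratio, Cbs and Mrm1 did not pass (limma adjusted p = 0.10 and 0.13). Other list genes gained a call, so the count was again 17 of 121, where 14.06% of all genes were called.

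For responsive minus resistant lines, 2 of 121 list genes were called, where 0.577% of all genes were. Nsun3 gave −0.93 ± 0.21 (limma adjusted p = 0.0283) and Gnmt −0.65 ± 0.16 (limma adjusted p = 0.0496). Gnmt did not pass without the 2 arrays of raised Gapdh ratio (limma adjusted p = 0.0597; 0.896% of all genes called then). Both genes were also higher in Ct than CBA, and Ct is 1 of the 2 resistant lines in this contrast.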

How the data were processed

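Liver RNA of 36 mice was hybridised to Affymetrix mouse arrays with 45101 probe sets, and the deposited table holds an intensity per probe set on a linear scale, made with MAS5 per the submitters' processing notes (version not given in the sources used here). The 2% trimmed mean of every array is 500, so the authors scaled each array to one level. Gene names came from the platform annotation (34945 probe sets with 1 symbol, 932 with several, 9160 unnamed here; 34741 Entrez IDs matched RefSeq).

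Signals were taken as log2(signal + 23.068), the offset being the 20th percentile. Probe sets with a mean log2 value above 6.51 (the 40th percentile, a signal of 68.1) were tested, 25941 in all and 12 of the 16 member probe sets. Prmt7 1426096_at and 1443011_at, Dnmt1 1447877_x_at and Dnmt3a 1423066_at were below it. limma 3.58.1 in R 4.3.3 fitted 1 mean per group over all arrays with a trended prior, and p-values were adjusted by Benjamini-Hochberg over all tested probe sets. Fold changes are on the offset log2 scale and understate changes of low genes. The number of arrays limits the precision. The code was tested on simulated data.

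The members and lists were chosen with earlier results of these data known. All member probe sets are described, with called list genes (up to 4 per list and comparison, by smallest p) and the 5 genes most like Prmt1 over 34 arrays. Rcn3 and Bcl2l12 were named after their values were seen. Where several probe sets stand for a gene, the one with the highest mean is used.

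Alternatives were quantile normalization, median centring, other offsets and filters, 1 probe set per gene, probe sets without shared suffixes, array weights, compared groups alone, arrays left out and a replicate block. The test over Cd-WT, CBA and Lp-WT, Cd-WT against each other control, and the block without the 2 arrays were added after seeing the data.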

Additional observations from a re-analysis of the deposited data

Results flagged for a closer look

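Of 63 groups of 4 mice (the highest probe set of each of 7 genes in 9 groups), 4 held a mouse whose gap to the next was above Dixon's critical value of 0.829 times the range of the group, where chance gives about 1 in 20. The ratios of gap to range are on the offset log2 scale, while the signals beside them are linear. Dnmt3b in Pax3 replicate 1 had a ratio of 0.891, with a signal of 61.7 against 111.4 to 119.2 in the others. Dnmt3a in Cd-WT replicate 4 had a ratio of 0.915, at 229.3 against 347.2 to 360.5. Prmt7 in Cd-Het replicate 2 had a ratio of 0.886, at 499.2 against 608.3 to 623.9. Prmt1 in Pax3 replicate 3 had a ratio of 0.847, at 323.8 against 200.4 to 216; this mouse also had the highest cycling-cell marker sum.

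The Prmt1 differences of Apob and Cd-Het from their controls had opposite signs, and the Cd-Het difference did not pass the test. All 4 Apob mice lay above the B6 mean and all 4 Cd-Het mice lay below the Cd-WT mean on the log2 scale, and the difference between these effects was 2.22. The difference was not tested, since Apob against B6 chose Prmt1.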

How the results depend on the processing

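Prmt1 in Apob minus B6 kept its sign under all 49 alternatives, from 1.45 to 1.60 on the log2 scale. It was 1.46 to 1.60 when single arrays were left out. That pair chose Prmt1, so the kept sign is a description and no support. The Prmt1 differences among the 4 controls (limma adjusted p from 2.01e-08 to 0.00336) and among Cd-WT, CBA and Lp-WT (3.85e-08 to 0.0122) passed under all 49. The 4 controls include the B6 arrays that helped to choose Prmt1, and the test without B6 was picked after the values were seen. No member was called in Pax3, Cd-Het or Lp-Het against its control under any alternative. In the main fit only 0%, 0.00385% and 0.0231% of all probe sets were called there, so this does not set the members apart. In Ct minus CBA the 1 member probe set called (Dnmt3a) became 0 with no filter, 1 probe set per gene or array weights. It also became 0 with the compared groups alone (65 of all probe sets called, against 1259). The same held without CBA replicate 4 and Ct replicate 3, and with the replicate block without those arrays. Leaving out single arrays gave 0 to 2. The adjusted p of Dnmt3a 1460324_at there ran from 0.00907 to 0.48. Among the 4 controls array weights gave 3 calls in place of 1, and both settings without CBA replicate 4 and Ct replicate 3 gave 2; single arrays left out gave 1 to 2. Array weights also gave 2 calls in place of 1 among Cd-WT, CBA and Lp-WT, and 1 in place of 0 for differences among the 4 line effects. For responsive minus resistant lines, single arrays left out gave 0 to 1. The causes were not tested.

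Of 4463 values of single probe sets under alternatives, 4440 kept their side of the threshold, 10 lost a call, 13 gained one and 0 reversed.

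The labels list mutant and control arrays side by side by number without naming a shared litter or day. Same-numbered mice correlated from −0.21 to 0.32 in their deviations, so the numbers were not taken as pairs. With the replicate block, 1 member probe set was called in Ct minus CBA, 1 among the 4 controls, and 1 among Cd-WT, CBA and Lp-WT. It gave 0 in Pax3, Cd-Het and Lp-Het against their controls, among the 4 line effects and for responsive minus resistant lines. These counts were the same without the block. With it, 1157 of all probe sets were called in Ct minus CBA.

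Prmt1 has a single probe set on this array, so no second measurement of its RNA bears on its values, and 4 member probe sets were too dim to test. No batch was used in the fits, and the array control signals were not entered in them.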
